A study of Mus musculus with 8 samples.

Results

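The genomic regions described here were 1057 stretches of chromatin that were selectively accessible in inhibitory neurons of the mouse hippocampus. They were chosen by their accessibility in nuclei gated on RNA, out of 154785 regions in which the ATAC-seq (assay for transposase-accessible chromatin) of each of 4 libraries had a peak. Nuclei came from the hippocampus of wild-type male C57BL/6J pups at postnatal day 21. The maternal diet held either 2 mg/kg folic acid (FA), the control level (MF), or 20 mg/kg (HF), and was fed from before mating until the end of lactation. Each diet had 2 single-nucleus multiome libraries (MF1, MF2, HF1 and HF2), in which RNA and accessibility were read from the same nuclei. How many pups a library pooled is not given in the sources used here, so p-values measure the spread between libraries.

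The 4 libraries held 14297 nuclei, with 79982157 to 113105243 transposase cuts in peaks each. The Gad1/Gad2 group comprised the nuclei with at least 3 UMIs of Gad1 plus Gad2, the enzymes that make GABA, and at most 1 UMI of Slc17a7, Mog, Csf1r and Aqp4 together, which mark excitatory neurons, oligodendrocytes, microglia and astrocytes. It held 598 nuclei (165 and 124 in the MF and 149 and 160 in the HF libraries), with 2882147 to 3916544 cuts per library. All other barcodes formed the rest. A region was kept with at least 50 cuts in the group and with a level in CPM (cuts scaled to the same total in every set of nuclei, after adding 1 cut) at least 4 times that of the rest in the pooled MF and in the pooled HF libraries. Of the shared regions, 59878 reached 50 cuts in the group and served as background. Between 13 and 27 barcode sequences occurred in both libraries of a pair. The 6 markers listed for inhibitory neurons, which include Gad1 and Gad2 of the gate, summed to 9595 to 10393 CPM of RNA in the group and to 1073 to 1186 CPM in the rest, a direction that the gate largely fixed. Markers listed for excitatory neurons summed to 632 to 778 CPM in the group and 1197 to 1677 CPM in the rest, and those of oligodendrocytes, astrocytes and microglia were lower in the group in 4 of 4 libraries, and these sums leave out the 4 genes that the gate limited. The 3 OPC markers, which the gate did not limit, were at 96.1, 104, 114 and 67.4 CPM in MF1, MF2, HF1 and HF2 against 86.9, 87.5, 97.5 and 81.8 CPM in the rest. The 5 markers listed for Cajal-Retzius cells also summed higher in the group, at 514 to 798 CPM against 98.7 to 117 CPM, and 1 of the 5 was at 0. Most of that sum was Reln, at 463 to 724 CPM in the group and 79.4 to 95.7 CPM in the rest. Reln is also among the genes listed below for interneurons. The part of these other cell types in the results was not tested.

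Inhibitory neurons of the hippocampus are born in the ganglionic eminences of the ventral forebrain and migrate to their final position. Homeodomain factors of the DLX family start their program there, and LHX6, SP8 and SP9 act downstream or beside them. Neurons from the medial eminence keep Lhx6, and many become parvalbumin or somatostatin cells. Neurons from the caudal eminence keep Adarb2, and many become VIP, CCK or neurogliaform cells. These types are not a full list for either origin. Distal regulatory regions carry much of the difference between neuron types, and the word TAATTA is the core sequence that DLX and LHX homeodomains bind.

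The sequences of 6 regions at interneuron genes are shown first, chosen because they hold TAATTA. This word had the highest ratio to the background among words of 6 letters in at least 5% of the regions. Other regions at such genes, among them those of Slc32a1, Gad2, Dlx5 and Sp9 and both of Lhx6, held none in their central 500 bp. Each sequence shown is 120 bases of the plus strand of mm10 around the TAATTA nearest to the middle of its region, with TAATTA in capitals. The windows lie at chr6:6869545-6869664 in the Dlx6os1 region, chr2:71546433-71546552 in the Dlx2 promoter region, chr6:8948441-8948560 in the Nxph1 promoter region, chr6:49817606-49817725 near Npy, chr4:33780790-33780909 in the region 143784 bp from the Cnr1 start and chr5:22282339-22282458 in Reln.
Dlx6os1: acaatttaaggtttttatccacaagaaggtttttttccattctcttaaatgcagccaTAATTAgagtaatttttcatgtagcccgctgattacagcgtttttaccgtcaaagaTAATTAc
Dlx2: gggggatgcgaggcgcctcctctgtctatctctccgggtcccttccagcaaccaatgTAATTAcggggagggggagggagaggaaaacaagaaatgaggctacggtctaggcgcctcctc
Nxph1: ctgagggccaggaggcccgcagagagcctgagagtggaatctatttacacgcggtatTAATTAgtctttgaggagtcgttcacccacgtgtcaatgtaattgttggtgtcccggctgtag
Npy: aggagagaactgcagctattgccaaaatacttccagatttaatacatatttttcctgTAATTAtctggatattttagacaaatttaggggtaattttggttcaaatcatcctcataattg
Cnr1: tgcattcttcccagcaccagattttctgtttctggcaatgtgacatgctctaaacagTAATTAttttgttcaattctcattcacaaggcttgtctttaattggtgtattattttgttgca
Reln: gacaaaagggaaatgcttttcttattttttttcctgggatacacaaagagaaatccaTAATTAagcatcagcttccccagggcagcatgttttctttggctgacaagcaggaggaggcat
The word lay 2 bp from the middle of the Cnr1 region, 7 bp from that of the Npy region and 9 bp from that of the Dlx6os1 region. In the Dlx2, Reln and Nxph1 regions the distance was 64, 80 and 119 bp. The Reln region held 4 copies and the Dlx6os1 region 3, and the others held 1 each.

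The selective regions were mostly distal. Of the 1057, 92.2% lay 2 kb or more from the nearest transcription start, compared with 69.0% of the 59878 background regions. Intergenic positions made up 47.7% (504 regions) and introns 38.5% (407 regions), against 26.2% and 35.7% of the background. Only 65 regions (6.15%) reached within 1 kb of a start, whereas 28.8% of the background did. A further 48 touched a coding exon, 9 a UTR and 24 another exon. Their median width was 947 bp, and the GC content of their central 500 bp had a median of 45.8%, below 51.0% in the background. On the X chromosome 3 regions (0.354% of its background regions) were selective, and on chromosome 9 79 were (2.25%).

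The values that chose the regions are given as a description. The median fold over the rest was 5.78 in MF and 5.53 in HF, with maxima of 29.6 and 20.7. The median level was 9.60 CPM in the group and 1.60 CPM in the rest. In 1056 of the 1057 regions the 4 group values all lay above the 4 rest values, which held for 26.7% of the background regions. A fold of 4 was reached in each single library by 628 regions (59.4%), and 1052 had a fold of 2 in each. The regions just inside the fold limit were those linked to BC049352, Atp6v1g3 and Arl14ep, and those just outside to Csmd1, Tmem132b and Gm34095, with the lower of both folds rounding to 4.0 in all 6. At the limit on cuts, 2 regions had exactly 50 and 2 with both folds had 48. Another 1104 regions with 50 cuts had the fold in a single diet.

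Because the libraries were separate samples, the rule could be set on 3 of them and read in the fourth. The regions so chosen had a median fold of 6.50 and 5.12 in MF1 and MF2 and of 5.90 and 4.85 in HF1 and HF2, in each case the library left out of the choice. In that library 86.2, 72.5, 80.3 and 68.3% of them had a fold of 4 or more, compared with 4.05, 2.80, 3.68 and 2.49% of the background regions. The fold in the library left out was lower in MF2 and HF2 than in MF1 and HF1.

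The share of all cuts that fell in the 1057 regions is given as a description, since the rule fixed that it be higher in the group than in the rest. In the group it was 1.22 and 1.10% in MF1 and MF2, and 1.11 and 1.05% in HF1 and HF2. Nuclei with 3 or more UMIs of a single other marker and little of the rest gave 0.138 to 0.159% for Slc17a7 (excitatory neurons), 0.148 to 0.180% for Mog, 0.0881 to 0.111% for Aqp4, 0.0626 to 0.101% for Csf1r and 0.137 to 0.156% for Pdgfra, the marker of oligodendrocyte progenitors (OPC). Nuclei with 3 or more Gad UMIs but over 1 UMI of the other markers, 972 in all, lay between, at 0.322 to 0.352%. These nuclei were deep, with median counts of 44446 to 70413 cuts against 19479 to 32224 in the group. Doublets were not removed, and their part was not tested.

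**Figure D1:**
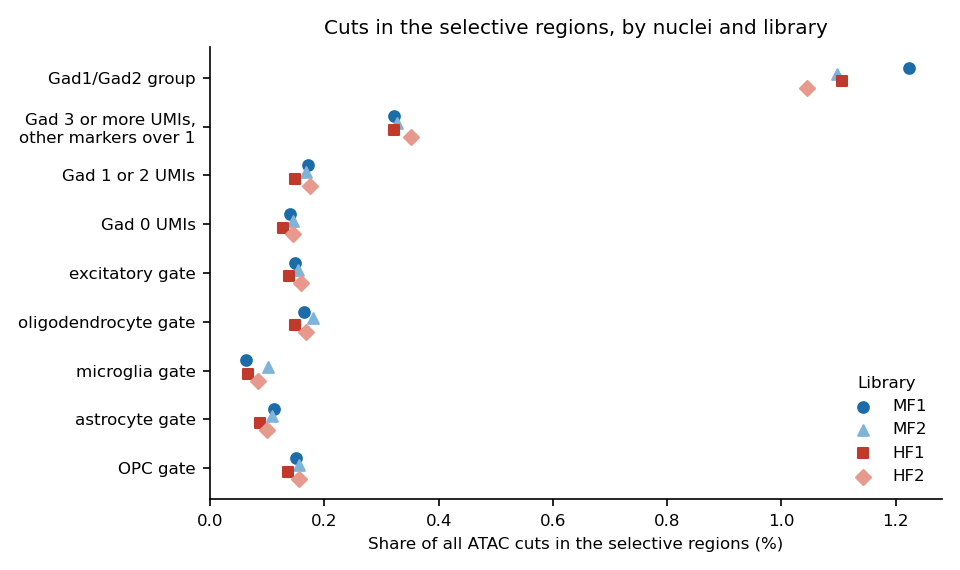
Share of all ATAC cuts that fell in the 1057 selective regions (x axis, %), for 9 sets of nuclei (rows) in the 4 libraries (symbols). The group sits between 1.05 and 1.22% and every other set lies at or below 0.352%, a direction that the choice of regions fixed.

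Some nuclei of the group had a low share. Of those with at least 1000 cuts, 8.13 and 12.4% in MF1 and MF2 and 8.51 and 9.87% in HF1 and HF2 had a share at or below the 95th percentile of nuclei without any Gad UMI. Nuclei without Gad UMIs seldom exceeded the 10th percentile of the group in MF1, HF1 and HF2 (0.365, 1.45 and 2.61% of them). In MF2, where that percentile was at a share of 0.169%, 26.1% did. Group and rest were least separate in MF2 by this measure.

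Some of the regions were also open in another cell type. The median region had 1.25 CPM in the excitatory gate, 0.795 in the OPC gate, 0.749 in the oligodendrocyte gate, 0.477 in the astrocyte gate and 0.251 in the microglia gate. In 161 regions (15.2%) at least 1 of these gates reached 0.5 times the group's level, and in 39 it exceeded the group. By gate these were 68 in the oligodendrocyte, 54 in the OPC, 30 in the astrocyte, 22 in the microglia and 0 in the excitatory gate. The excitatory gate held 2774 nuclei and 91382036 cuts, the most of these gates, and why it had no such region was not tested. The furthest above was a region at chr1:90372791-90373742 near Gm28722, with 13.9 CPM in the group and 32.4 CPM in the microglia gate. The microglia gate held 673 and the oligodendrocyte gate 761 of the 14297 nuclei, so a region could be open there and still meet the rule. In 631 regions (59.7%) all 5 gates stayed at or below 0.25 times the group.

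Promoters of genes that define the inhibitory neuron were among the 10 regions of highest level. The promoter region of Slc32a1, which encodes the transporter that loads GABA into vesicles, at chr2:158610409-158611376, had 42.7 and 41.4 CPM in MF1 and MF2 and 44.8 and 38.2 CPM in HF1 and HF2. The rest gave 4.09, 3.60, 4.51 and 4.46 CPM, and the groups did not overlap. The Dlx5 promoter region, at chr6:6881567-6882539, had 42.4, 28.1, 33.3 and 36.4 CPM against 3.57 to 4.32 CPM. The Dlx2 promoter region, at chr2:71546133-71546982, had 28.6, 34.0, 32.3 and 27.2 CPM against 3.77 to 4.63 CPM. At Gad2, which encodes a GABA-synthesizing enzyme, the promoter region at chr2:22621941-22622937 had 28.9 to 31.6 CPM against 3.18 to 3.59 CPM. Gad2 RNA also set the gate, and these 4 values spanned less than those of the DLX promoters.

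Other regions among the 10 most accessible lay outside such promoters. One in an intron of Ntrk2, the receptor for brain-derived neurotrophic factor, had 26.7 to 34.8 CPM against 4.79 to 5.55 CPM, and it was also at 12.9 CPM in the astrocyte gate. The promoter region of Rpp25, a subunit of ribonuclease P, had 26.6 to 37.8 CPM, with the highest rest of the 10, at 6.63 to 8.71 CPM. Regions in an intron of Dlgap2, a postsynaptic scaffold gene, and 32012 bp from the start of Ttll11, a tubulin-modifying enzyme, had 25.6 to 34.5 and 28.9 to 31.3 CPM. An intergenic region 11215 bp from the start of Guca2b had 24.1 to 40.4 CPM against 3.28 to 4.04 CPM. Guca2b RNA was at 0 in the group. A region in an intron of A730065G17Rik had 25.1 to 30.5 CPM against 1.95 to 2.39 CPM.

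Of 43 genes listed for interneuron identity, subtypes and GABA signalling, 16 had a selective region, with 24 regions in all. The DLX cluster was represented by Dlx2, Dlx5 and Dlx6os1, a noncoding RNA that spans Dlx6. The Dlx6os1 region at chr6:6869117-6870112 had 29.6, 25, 27.4 and 28.7 CPM against 1.53 to 1.71 CPM in the rest. The zinc finger factors Sp9 and Sp8, which act with DLX factors, had a promoter region at 15.9 to 29.4 CPM and a region 125923 bp from the Sp8 start at 8.68 to 12.5 CPM. Nxph1, a neurexin ligand, and Npy, a neuropeptide, had 3 regions each. The Nxph1 promoter region, shown above, was as high in the OPC gate (16.3 CPM) as in the group (16.1 CPM), and the Cnr1 region was at 6.45 CPM in the astrocyte gate against 9.39 CPM in the group. Lhx6 and Npas3 had 2, and Maf, Reln, Cnr1 and Vip had 1. A region in an intron of Akap6 counted because the start of Npas3 was the nearest.

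**Figure D2:**
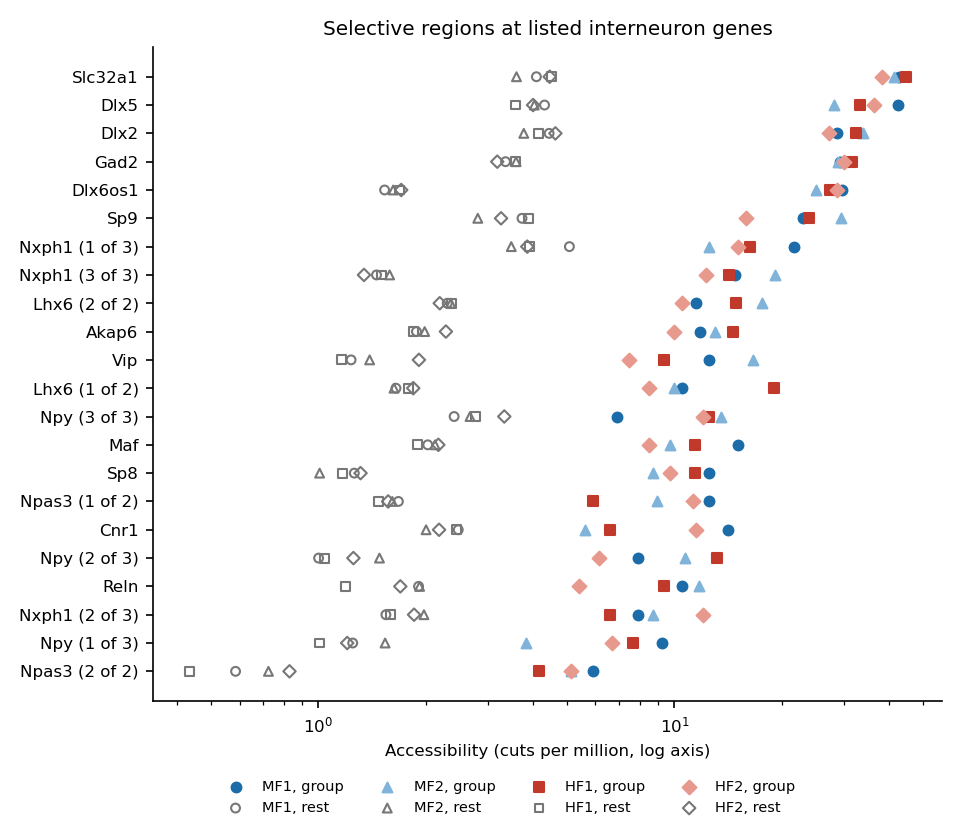
Accessibility (x axis, CPM of cuts, log axis) of 22 of the 24 selective regions at listed interneuron genes (rows, numbered by position where a gene has several), in the group (filled) and in the rest (open) of the 4 libraries. Every group symbol lies right of every rest symbol of its row, from the Slc32a1 promoter at 38.2 to 44.8 CPM down to an Npas3 intron at 4.16 to 5.91 CPM.

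The other 27 listed genes had none. For 18 of them, the best region had a fold of 2 or more in both diets, and 2 (Dlx6 and Nkx2-1) had no region of 50 cuts linked to them. Dlx1 missed the limit narrowly, with folds of 4.56 in MF and 3.97 in HF, as did Erbb4, a neuregulin receptor, with 5.42 and 3.77. For Gad1 the best region, in an intron, had folds of 2.23 and 2.62, although Gad1 RNA was part of the gate. Around Sst, the somatostatin gene, the best folds were 1.37 and 1.59, while its RNA was 8.54 times higher in the group than in the rest.

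The sequence of the regions differed from the background in the words that homeodomains bind. In the central 500 bp, searched on both strands, 276 of the 1057 (26.1%) held TAATTA, compared with 10.9% of the background, 13.8% of all shared regions and 10.2% of 4755 regions that the same rule found for oligodendrocytes (Mog). The ratio to the background, 2.39, was the highest of the 1782 words of 6 letters that occurred in at least 5% of the selective regions. The next words were AATTAT (39.9 against 17.2%), ATTATG (29.4 against 13.7%), TAATCA (28.8 against 13.6%) and ATTATC (24.3 against 11.6%), all of which hold ATTA or its reverse complement TAAT. At the other end of the ranking were GC-rich words, led by GCGCCC (5.77 against 22.8%) and CCCCGC (7.95 against 28.9%). Other palindromes of A and T differed less, with ratios of 1.37 to 1.77. Since promoters are rich in GC, the comparison was repeated for regions 2 kb or more from a start: TAATTA remained first of 1764 words, at 26.2% against 13.8%, with a ratio of 1.89.

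The word was concentrated at the middle of the regions. In the 100 bp just left of it there were 0.937 TAATTA per kb, falling to 0.341 at 400 to 500 bp on that side. In the background the density was 0.245 to 0.298 per kb at all distances up to 1 kb.

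**Figure D3:**
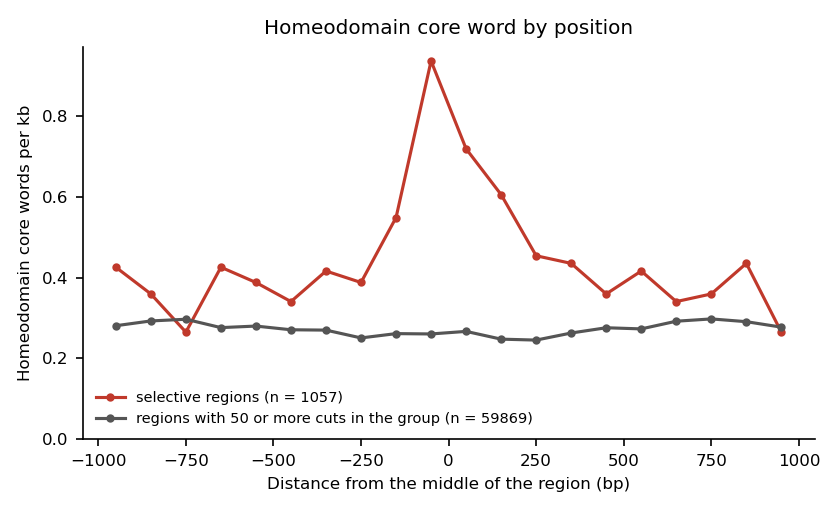
Density of the homeodomain core word (y axis, matches per kb) by distance from the middle of the region (x axis, bp, bins of 100 bp), in the 1057 selective regions and in the background regions. The selective regions peak at 0.937 per kb at the middle, and the background stays between 0.245 and 0.298.

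Words of other factor families were searched as well. The E-box CAGCTG, bound by basic helix-loop-helix factors, occurred in 59.5% of the regions against 37.2% of the background. The MEF2 word TATTTATA occurred in 7.0 against 2.87% and the POU word ATGCAAAT in 7.57 against 3.47%. The E-box CAGATG (49.5 against 38.8%), the MAF word TGCTGAC (13.5 against 9.27%) and the AP-1 word TGAGTCA (14.2 against 10.7%) differed less. The SOX word ACAATG occurred in 31.9 against 20.0% of the background and in 49.6% of the oligodendrocyte regions. The CTCF core AGGGGGC was rarer, at 7.0 against 14.8%. Among regions 2 kb or more from a start, the differences in CAGATG (50.2 against 46.1%), TGAGTCA (14.5 against 12.8%) and ACAATG (32.2 against 23.7%) were smaller. There the ratios to the background of TATTTATA (1.99) and ATGCAAAT (1.90) were close to that of TAATTA (1.89). A word match is a description of the sequence and was not tested as a binding site. The same rule, applied to the excitatory gate of 2774 nuclei, found 0 regions, so no comparison with excitatory neurons could be drawn.

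RNA of the genes at the regions was higher in the group than the background gave. Each region was linked to the protein-coding gene that holds it, or otherwise to the nearest start, which gave 907 genes. Among the 703 regions whose gene had at least 100 UMIs and was not in the gate, 191 (27.2%) had a gene with RNA 2-fold or more higher in the group, compared with 7.69% of the background. By genes this was 140 of 592 (23.6%) against 5.57%. Conversely, 6.69% had a gene at 0.5 times the rest or less, against 11.5%. The contrast is the one that chose the nuclei, so these counts are descriptive.

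Several genes held clusters of regions. Ptprm, a receptor tyrosine phosphatase, held 6 of its 33 background regions, spread from chr17:66667238 to 67257016, and its RNA was at 799 CPM in the group and 88.2 CPM in the rest. Kcnmb2, a subunit of calcium-activated potassium channels, held 5 of 13 within its introns, with RNA at 672 against 53.7 CPM. Nrxn3, a neurexin, held 5 of 50, with RNA at 9693 against 3957 CPM, and Rbms3, an RNA-binding protein, held 4 of 21, with RNA at 963 against 127 CPM. In each of these genes RNA was higher in the group in all 4 libraries. Many genes tied at 3 linked regions, and those named next are the first of them by alphabet. Adamts17 held its 3 regions, whereas those of the other genes named here were linked only by the nearest start. Adamts17 and 6530411M01Rik had RNA 1.74 and 4.50 times higher. Cobl had RNA at 0.316 times the rest, and Cdh5, 4930452A19Rik and 4930477N07Rik were near 0 in both. In total 117 genes were linked to 2 or more regions.

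Of 27 genes of GABA synthesis, transport and reception, 8 had RNA 2-fold or more higher in the group. Besides Gad1 and Gad2 of the gate they included Slc32a1 (57.0 against 6.44 CPM), Abat, which degrades GABA (127 against 38.1 CPM), and the receptor subunits Gabra3, Gabrg3 and Gabrd, at 2.01, 3.16 and 2.63 times the rest. Of the list, 5 genes had a selective region, among them Gad2, Slc32a1, Gabrb2 and Gabbr2. Gabra2 and Gabra5, also receptor subunits, were at 0.554 and 0.372 times the rest.

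The lineages within the group were then compared, a contrast that the rule had not used. The nuclei were however part of the group. Those of the Lhx6 and of the Adarb2 lineage gave 2678077 and 5186163 of the 13744533 cuts that chose the regions. A region could thus meet the rule through an excess in a single lineage, which the background regions did not need. Lhx6 lineage nuclei had 1 or more UMIs of Lhx6 and at most 1 of Adarb2, and Adarb2 lineage nuclei had 5 or more of Adarb2 and none of Lhx6. They numbered 115 (26 to 31 per library) and 235 (45 to 70 per library), and 248 nuclei were in neither. Of 14 lineage markers outside the gates, 13 differed in the direction of the labels in 4 of 4 libraries. Sst averaged 1144 CPM in the Lhx6 and 93.4 CPM in the Adarb2 lineage, Sox6 483 and 69.0 CPM, and Satb1 326 and 74.1 CPM, each higher in the Lhx6 lineage in 4 of 4 libraries. Vip averaged 1.17 and 291 CPM and Cnr1 43.6 and 746 CPM, each lower in 4 of 4. The exception was Npy, listed for the Lhx6 lineage, with 214 and 169 CPM on average and higher in 3 of 4.

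The regions as a whole were more accessible in the Lhx6 lineage. They took 1.35 and 1.42% of its cuts in MF1 and MF2 and 1.64 and 1.35% in HF1 and HF2, against 1.04, 0.946, 0.897 and 0.940% in the Adarb2 lineage, with no overlap. Over all 1057 regions, without a filter, 755 (71.4%) had a higher CPM in the Lhx6 lineage, and the median log2 ratio was 0.67, compared with 52.3% and 0.03 over the background regions. A ratio of 2 or more towards the Lhx6 lineage was seen in 393 regions (37.2%, background 10.1%), and one as large towards the Adarb2 lineage in 83 (7.85%, background 9.59%). Nuclei of low share moved with the lineage: 1 of 110 in the Lhx6 and 20 of 223 in the Adarb2 lineage had a share at or below the level of nuclei without Gad. The median nucleus differed as well, at 1.5 to 1.67% against 0.971 to 1.11%. With the nuclei of low share left out, the median log2 fold change over the selective regions tested by edgeR was 0.54, compared with 0.66 with them. Those nuclei were picked by their cuts in these same regions and were mostly of the Adarb2 lineage. The fit without them therefore cannot show what part they had. Depth of RNA also moved with the lineage, with median UMIs of 11608 to 13452 per nucleus in the Lhx6 and 8529 to 10596 in the Adarb2 lineage, whereas median cuts overlapped (18699.5 to 34938.5 and 18927 to 34052). The part of RNA depth in the result was not tested.

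Tested with edgeR over the 32291 regions that passed its filter on low counts, 343 (1.06%) differed between the lineages at a false discovery rate (FDR) under 0.05. Of the selective regions 890 passed the filter and 167 did not. Among the 890, 105 (11.8%) were called, of which 86 were higher in the Lhx6 lineage (background 0.57%) and 19 in the Adarb2 lineage (background 0.492%). They made up 30.6% of all 343 calls. Since cuts of the same nuclei had also chosen the selective regions, these shares beside the background are descriptive. A region low in both lineages could not pass the filter, so the 890 are not a sample of the 1057. In 84 of the 86 and in all 19 the direction was the same in 4 of 4 libraries, which is a description, since the test used the same libraries. With 1 library and its nuclei left out, the number fell to 26 (57 over all regions) without MF1, 28 (58) without MF2, 39 (98) without HF1 and 42 (117) without HF2. With 2 or more Lhx6 UMIs, which left 34 nuclei, none was called by edgeR, with 72 at an unadjusted p under 0.05, and 3 of 24422 regions were called over all (1723 at an unadjusted p under 0.05).

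The lowest p among regions higher in the Lhx6 lineage was in an intron of Lsamp, a neuronal adhesion molecule, at chr16:41968852-41969865. In the order MF1, MF2, HF1, HF2 it had 31.2, 29.7, 30.9 and 39.4 CPM in the Lhx6 lineage and 1.86, 1.42, 6.29 and 2.51 CPM in the Adarb2 lineage. The edgeR FDR was 8.05e-06. In the group as a whole Lsamp RNA was at 0.932 times the rest, and it was not compared between the lineages. The Guca2b region followed, with 26.8 to 73.3 against 7.12 to 15.8 CPM, a log2 fold change of 2.01 ± 0.31 (SE) and an FDR of 5.39e-05. Then came the Lhx6 promoter region at chr2:36104733-36105692, with 16.4, 34.5, 42.4 and 23.9 against 0.929, 3.56, 4.49 and 2.51 CPM (3.23 ± 0.50, FDR 5.39e-05), where Lhx6 RNA had set the lineages. A region in the mitochondrial topoisomerase gene Top1mt had 13.1 to 38.6 against 0 to 5.02 CPM, with an FDR of 7.85e-05 by edgeR. The middle of this region lay 21 bp from the start of another gene, Gm15945. It was at 7.24 CPM in the oligodendrocyte gate against 13.3 CPM in the group. Further regions of the first 10 were linked to Gm47358, Gm41230, the RNA-binding protein gene Qk, the neuromedin U receptor gene Nmur2 and Arl4d, with FDR of 0.000223 to 0.000303 by edgeR.

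Regions higher in the Adarb2 lineage had fewer cuts. In an intron of Btbd11, whose RNA was 14 times higher in the group than in the rest, the Adarb2 lineage had 12.6 to 25.2 CPM and the Lhx6 lineage 0 to 4.23 CPM (edgeR FDR 0.00279). The promoter region of Pnoc, which encodes the precursor of the neuropeptide nociceptin, had 21.6 to 35.3 against 5.95 to 11.5 CPM (edgeR FDR 0.0118). A region in Sorcs3, a neuronal sorting receptor, had 11.3 to 22.3 against 0 to 7.71 CPM (edgeR FDR 0.0207). The Btbd11 region was called in 8 of 12 alternatives (FDR up to 0.466), the Pnoc region in 8 of 13 (up to 0.495) and the Sorcs3 region in 6 of 12 (up to 0.569), by edgeR or DESeq2. Further regions of the first 10 were linked to Gm32335, Gm37240, Gm45350, Sbno2, BC067074 and Gm11690.

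The central 160 bases of the Lsamp region (chr16:41969278-41969437) are shown as the leading region of the Lhx6 lineage, on the plus strand of mm10 with CAGCTG in capitals.
Lsamp: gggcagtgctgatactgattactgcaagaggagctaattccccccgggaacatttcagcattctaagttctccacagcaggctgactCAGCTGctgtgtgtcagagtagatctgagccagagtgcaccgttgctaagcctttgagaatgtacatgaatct
The window held no TAATTA, and the whole region held 1 copy and 3 CAGCTG.

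The listed genes fell on both sides. All 24 of their regions passed the filter, of which 4 were higher in the Lhx6 lineage and 1 in the Adarb2 lineage. The 4 were both Lhx6 regions, which are not independent of the gate, a region linked to Maf and the farthest Nxph1 region. The region 98961 bp from the start of Maf, a factor of medial eminence neurons, had 15.4 to 32.8 against 2.79 to 7.19 CPM (log2 fold change 1.98 ± 0.52, edgeR FDR 0.0325). The Nxph1 region lay 892949 bp from its start, with another annotated start at 330229 bp. It had 16.9 to 32.8 against 1.86 to 10.0 CPM (edgeR FDR 0.0435). The region linked to Cnr1, the cannabinoid receptor of CCK cells, lay 143784 bp from its start, with another annotated start at 99357 bp. It had 10.7 to 24.5 CPM in the Adarb2 lineage and 14.8, 2.38, 0 and 2.82 CPM in the Lhx6 lineage (edgeR FDR 0.0431). These calls were lost in most alternatives: the Maf region was called in 5 of 11 (FDR up to 0.350), the Nxph1 region in 5 of 13 (up to 0.949) and the Cnr1 region in 4 of 13 (up to 0.355), by edgeR or DESeq2, whereas each Lhx6 region was called in 12 of 13. Reln had 10.0 to 18.9 against 0 to 8.21 CPM and did not pass in edgeR (FDR 0.0935). The regions of all inhibitory neurons were closer between the lineages on average. Log2 fold changes were -0.02 ± 0.24 at Slc32a1, -0.12 ± 0.31 at Gad2, 0.15 ± 0.25 at Dlx5, 0.10 ± 0.27 at Dlx2 and -0.02 ± 0.29 at Dlx6os1. At Gad2 the libraries differed, with 8.21 CPM in the Lhx6 and 42.8 CPM in the Adarb2 lineage in MF1. In HF1, the only library with the Lhx6 lineage higher, the values were 63.6 and 20.7 CPM. The Sp9 promoter region was at 0.75 ± 0.37 (edgeR FDR 0.411). The region linked to Vip lay 68987 bp from its start, with another annotated start at 27614 bp. Vip RNA was nearly absent from the Lhx6 lineage, and the region had 7.04 to 17.4 CPM there and 7.19 to 23.5 CPM in the Adarb2 lineage (-0.18 ± 0.44). Whether the region acts on Vip was not tested.

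**Figure D4:**
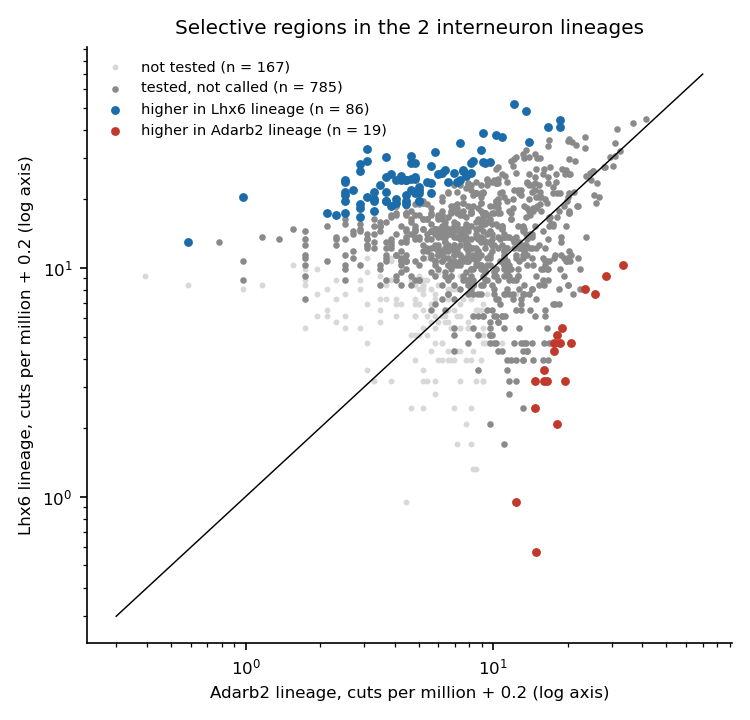
Accessibility of the 1057 selective regions in the Adarb2 lineage (x axis) and in the Lhx6 lineage (y axis), pooled over the 4 libraries, in CPM of cuts after adding 0.2, on log axes. The line marks equal levels, 86 regions called higher in the Lhx6 lineage lie above it and 19 called higher in the Adarb2 lineage below it.

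The words at the regions differed by lineage. Over all members, TAATTA occurred in 73 of the 393 regions (18.6%) with a ratio of 2 or more towards the Lhx6 lineage, in 36 of the 83 (43.4%) towards the Adarb2 lineage and in 28.7% of the 581 between. In background regions split the same way the shares were 13.2, 17.4 and 9.87%. CAGCTG went the other way, at 64.6, 45.8 and 58.0%, as it did in the background (47.1, 37.4 and 35.9%). The MAF word TGCTGAC occurred in 17.3% of the 393 and in 3.61% of the 83, and in 12.6 and 8.33% of the background regions. The SOX word ACAATG occurred in 24.7% of the 393, in 51.8% of the 83 and in 33.9% between. Background shares of ACAATG were 19.9, 29.7 and 18.8%. The MEF2 word TATTTATA occurred in 6.62 and 12.0% (background 4.06 and 3.75%). CAGATG was at 52.9 and 48.2% (background 50.9 and 45.8%), and the NFI word TTGGCA at 30.3 and 34.9% (background 30.5 and 43.4%). GC content had medians of 46.0 and 43.2%, and these shares were not tested.

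The maternal diets were compared to ask whether the HF diet altered accessibility of these regions in the pups' inhibitory neurons. The rule asked for the fold in both diets, so the 1104 regions with 50 cuts and the fold in a single diet were not among the 1057. Counts over the 1057 therefore cannot show whether the diet spared selective regions. None of the 1057 regions differed in edgeR at an FDR under 0.05, and none of the 78127 regions tested did (0%). Unadjusted p-values under 0.05 occurred in 27 of the 1057 (2.55%) and in 4.15% of all tested, and DESeq2 also called 0. The median log2 fold change, HF minus MF, was -0.08 over the selective regions and 0.01 over all, and 38.7% of the former and 50.7% of the latter were positive. As given above, the share of cuts in the regions was highest in MF1 and lowest in HF2, with MF2 and HF1 close together, so the diets overlapped.

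The 5 regions with the lowest p were all lower in HF. In an intron of Col19a1, a collagen gene, at chr1:24451904-24452799, the group had 22 and 27.3 CPM in MF1 and MF2 and 14.9 and 12.8 CPM in HF1 and HF2 (log2 fold change -0.82 ± 0.28, unadjusted p = 0.00691 and FDR 1 in edgeR). In an intron of Mpdz, a scaffold with many PDZ domains, it had 12.8 and 10.2 against 5.20 and 4.87 CPM (-1.16 ± 0.41). The regions near Nacc2, Gm35216 and in Cab39l had means of 14.9 against 7.74, 15.7 against 8.54 and 7.95 against 3.22 CPM. The 5 were picked for their p, and none passed the adjustment. At the promoters the log2 fold changes (± SE) were -0.00 ± 0.20 at Slc32a1, 0.10 ± 0.22 at Gad2, 0.02 ± 0.23 at Dlx5 and -0.07 ± 0.23 at Dlx2. The Vip region had 12.5 and 16.6 CPM in MF and 9.37 and 7.43 CPM in HF (-0.79 ± 0.36, FDR 1 in edgeR).

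**Figure D5:**
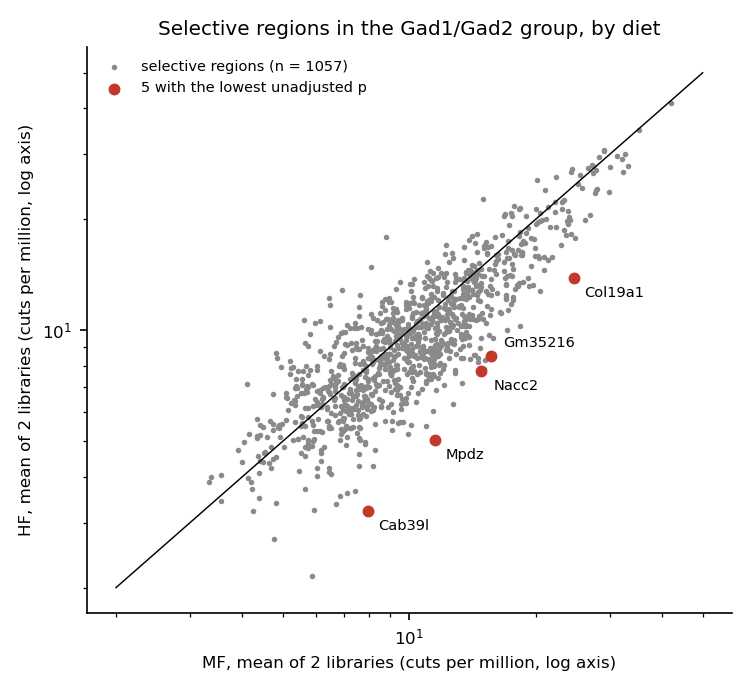
Mean accessibility of the 1057 selective regions in the Gad1/Gad2 group in MF (x axis) and in HF (y axis), 2 libraries each, in CPM of cuts on log axes, with the line of equal levels. The 5 regions with the lowest unadjusted p (named) lie below the line, and none passed the adjustment.

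The difference between the lineages did not change detectably with diet. The interaction of lineage and diet was called in 0 of 890 selective regions and in 0 of 32291 tested (0%) by edgeR, with 32 and 1168 at an unadjusted p under 0.05, and DESeq2 also called 0. RNA of the linked genes gave a like result. Of 498 linked genes tested none was called, nor was any of all 11548 (0%), with 18 linked genes (3.61%) and 2.50% of all at an unadjusted p under 0.05 in edgeR. DESeq2 called 3 genes, none of them linked. A replicate block gave 7 linked genes (62 of all) in edgeR, and leaving out HF1 gave 3 (24 of all). The lowest p among linked genes was at Gm6999, with 1.06 and 0 CPM in MF1 and MF2 and 9.30 and 7.25 CPM in HF1 and HF2. Matn2, an extracellular matrix protein, had 21.1 and 21.0 against 49.8 and 33.2 CPM, and Slc35f3 99.8 and 117 against 160 and 191 CPM, with an edgeR FDR of 0.640 for Gm6999 and of 1 for the other two. Of the 27 GABA genes 26 were tested and none was called. Gabra2 had 228 and 251 CPM in MF and 357 and 378 CPM in HF (log2 fold change 0.66 ± 0.19, unadjusted p = 0.0043 and FDR 1 in edgeR), and the median over the list was 0.03.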

How the data were processed

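RNA and chromatin accessibility were measured in the same nuclei of 4 hippocampal libraries (2 per diet). The authors aligned the reads with Cell Ranger ARC 2.0.1 to mm10, called peaks in each library and deposited matrices of raw counts of UMIs per gene and raw counts of transposase cuts per peak. Between 81.1 and 83.1% of the ATAC entries were even, as counting both ends of a fragment gives, so cuts are not independent and errors rest on the spread between libraries. Peaks overlapping between libraries were merged, and cuts were summed per region, library and set of nuclei. Doublets were not removed and no filter on nuclei was applied in the main analysis. The members, gene lists and words were chosen with earlier results of these data known.

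Library sums were tested with edgeR 4.0.16 (quasi-likelihood test, TMM, filter on low counts, Benjamini-Hochberg over all features, FDR under 0.05), with the library as a term for the lineages. DESeq2 1.42.0, other normalization, gates, filters and left-out libraries were alternatives. Tests were checked on simulated data. With 2 libraries per diet the precision is low. Sequences, starts and places came from GRCm38.p6 (mm10) and its GENCODE M21 annotation. A promoter region reached within 1 kb of a start. Named were the 10 regions of highest CPM, those at 43 listed genes, the 5 of lowest p for diet, the 10 of lowest p in each lineage direction, the 10 genes with most regions (ties by alphabet), and those at each threshold. Some of the items so named are not reported here.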

Additional observations from a re-analysis of the deposited data

How the results depend on the processing

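The number of selective regions, 1057, was 2357 at a fold minimum of 3, 295 at a minimum of 6, 692 with a gate of 2 Gad UMIs, 133 with no limit on the other markers and 630 with the fold required in each library. It was 1514 with only the nuclei that pass the authors' filters, 1036 of the 1057 among them. With a gate of 5 Gad UMIs it was 1211, with 955 of the 1057. It ranged from 922 to 1093 with 1 library left out. The 105 lineage calls became 69 with DESeq2 (206 over all regions, against 343), 56 without the filter on low counts (263 over all), and 0 with 2 or more Lhx6 UMIs (3 over all), and they ranged from 26 to 42 with 1 library left out (57 to 117 over all). In 2 alternatives chosen after seeing the data, they were 240 with Adarb2 at most 1 UMI in place of the Lhx6 gate (1306 over all) and 94 with nuclei of low share left out (304 over all). Fewer nuclei, fewer libraries or more regions tested are part of these alternatives, and beyond that the cause was not tested. Of 24 named regions called between the lineages, DESeq2 kept 15, and 11 to 15 were kept with 1 library left out. Regions whose linked gene had RNA 4-fold or more higher made up 12.7% (background 2.18%), and TAATTA occurred in 20.3% of the central 300 bp and in 38.4% of whole regions (background 6.96 and 19.04%).

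Diet gave 0 selective regions in all alternatives run, where the rule had asked for the fold in both diets. Over all regions it gave 19 without the filter and 1 to 63 with 1 library left out, 63 without MF2 and 41 without HF1. The linked genes called for RNA ranged from 0 to 3 with 1 library left out (3 without HF1). With the replicate number as a block, 7 linked genes (62 of all) and 12 regions over all, none of them selective, were called. The labels do not say that the numbers pair the samples, and the deviations of MF1 and HF1 correlated at 0.0122 across regions, which are not independent. This was not measured on RNA. At 2882147 to 3916544 cuts per library in the group, 167 selective regions did not pass the lineage filter. The parts of depth and of the number of libraries in the counts of calls were not separated.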
